A study of Mus musculus with 23 samples.

Results

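The comparison described here set *Zbtb11* KO cells against their EtOH control, library by library within each replicate number, and asked which genes changed when Zbtb11, a zinc finger protein of the ZBTB family, was removed from mouse embryonic stem cells (ESCs). The 14001 genes with more than 1 CPM (the counts of a gene scaled to the size of its library) in at least 3 of the 6 libraries were tested, out of 37310 genes in the files. Both groups were the same clonal E14 line, in which exon 3 of *Zbtb11* is flanked by lox sites on both alleles (lox/lox) and a Cre recombinase fused to the ERt2 domain (ERt2-Cre) is expressed from the *Rosa26* locus. *Zbtb11* KO cells received 250 nM 4-hydroxytamoxifen (4OHT), which activates the recombinase, for 48 h, and the EtOH control received the ethanol carrier for 48 h, with 3 libraries in each group. A further group of 3 libraries, the 4OHT control, held cells with wild-type *Zbtb11* and *Rosa26* loci and 250 nM 4OHT for 48 h, and is given beside single genes. The loss of Zbtb11, the drug and the active recombinase all differ between *Zbtb11* KO cells and the EtOH control and cannot be told apart within this comparison. The lines were grown without feeder cells, on gelatin with serum and LIF. The whole series holds 23 samples, the others being ChIP-seq libraries and their inputs. These came from wild-type E14 cells or from E14 cells with FLAG-tagged *Zbtb11* on both alleles.

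The counts on genes ranged from 16644385 to 23876604 over the 6 libraries, and the groups overlapped in depth. Within every replicate number, however, the *Zbtb11* KO library had fewer counts than the EtOH control library. The deletion itself could not be followed, because the annotation joins *Zbtb11* to *Rpl24*, a ribosomal protein gene. This joint gene had normalised levels of 357, 374 and 386 CPM with EtOH and of 365, 358 and 364 CPM in *Zbtb11* KO cells, and its log2 fold change was -0.04 (edgeR, adjusted p = 0.727). All 9 ESC markers, among them *Pou5f1*, *Sox2* and *Nanog*, were expressed, with a summed level of 4262 to 4721 CPM in the EtOH control and 4381 to 4697 CPM in *Zbtb11* KO cells, and none of the 9 was called. The 7 fibroblast markers summed to 19.5 to 38 CPM in the EtOH control and 22.5 to 42.7 CPM in *Zbtb11* KO cells, with *Dcn*, *Col3a1* and *Postn* below the limit for testing. The 4 endoderm markers summed to at most 7.15 CPM and the 3 mesoderm markers to at most 1.59 CPM in any of these libraries, and *Pax6*, a neural marker, had 9.17 to 15.3 CPM in the EtOH control and 7.57 to 13.1 CPM in *Zbtb11* KO cells. Replicate 1 stood apart from replicates 2 and 3 in both groups, and the replicate number was a block in the fit, as the comparison was defined.

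A transcription factor with a BTB domain and zinc fingers binds DNA at promoters through its fingers and can recruit other proteins through its BTB domain. Genes whose promoter such a factor occupies may lose or gain transcripts when it is removed, whereas others may change at a distance, through the products of the first. ESCs are a self-renewing cell type in which most housekeeping pathways are active, so genes of many functions can be followed in a single experiment.

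A gene was called when its adjusted p value was under 0.05 in edgeR's quasi-likelihood test (Benjamini-Hochberg adjustment over the 14001 genes). In total 560 genes (4.00%) were called. Of these, 413 were lower in *Zbtb11* KO cells (2.95% of the genes tested) and 147 were higher (1.05%). The lowered genes changed more strongly than the raised ones. Their median fall was 0.42 on a log2 scale (taken as size, with an interquartile range of 0.23 to 0.96), and 98 of them fell by more than 1. The raised genes had a median of 0.32 (0.24 to 0.48), and 7 of them rose by more than 1. The 3 *Zbtb11* KO libraries lay below all 3 EtOH control libraries in 266 of the 413 lowered genes, and above them in 72 of the 147 raised genes. Over all genes tested, 4.12% lay below in this way and 3.17% above. Of the lowered genes 22 (5.33%), and of the raised genes none, belonged to the *Nduf*, *Mrpl* and *Mrps* families of complex I and the mitochondrial ribosome, which held 117 of the genes tested (0.836%). Membership was taken from the start of the gene symbol. This leaves 391 lowered genes with other symbols. The median log2 fold change over all genes tested was 0.0001.

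**Figure D1:**
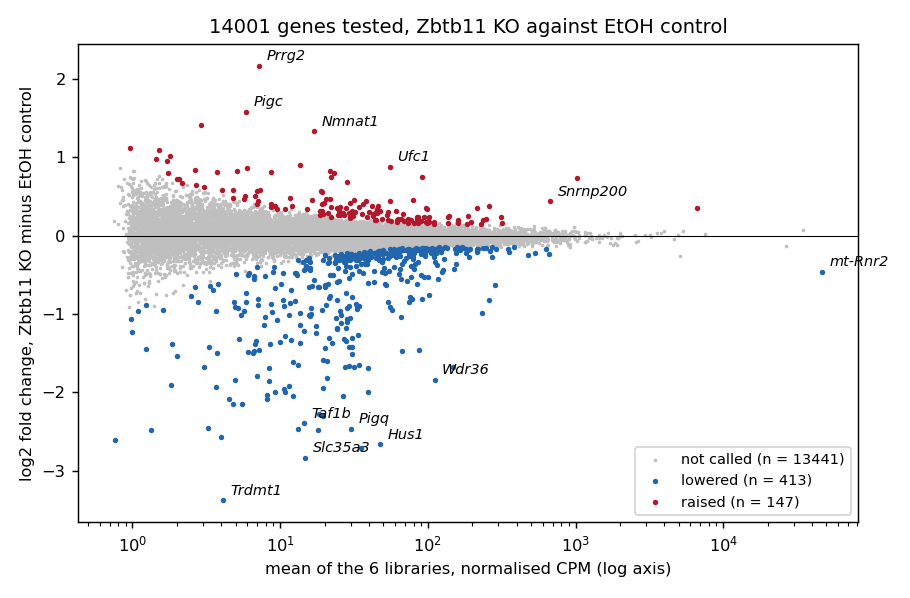
Each point is a gene tested, placed by its mean normalised CPM over the 6 libraries (log axis) and by its log2 fold change in *Zbtb11* KO cells minus EtOH control. Blue points are the 413 lowered and red points the 147 raised genes, and the lowered genes reach further from 0 (to -3.38) than the raised genes (to 2.17).

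The size and the direction of these counts rested on the pairing and on the scaling. Without the replicate block 104 genes were lowered and 9 raised. Without TMM scaling of the library sizes the split was 308 lowered and 294 raised, so that 48.8% of the calls were raised in place of 26.3%, and the median of all genes moved by 0.04. Without replicate 3, 88 genes were raised.

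Zbtb11 occupancy was taken from the ChIP-seq peaks of the series, which played no part in choosing the genes. It was not measured in the lox/lox ERt2-Cre line. The Zbtb11 antibody was used in wild-type E14 cells, and a FLAG antibody in E14 cells with FLAG-tagged *Zbtb11* on both alleles. The consensus peaks are those common to both. A promoter was taken as 2000 bases before to 500 bases after any annotated start of a gene on mm9, and a peak counted when it overlapped a promoter by at least 1 base. Among the 7500 consensus peaks, those with a mean coverage in the 4 Zbtb11 libraries above the upper quartile by more than 1.5 interquartile ranges are called Zbtb11-high here. A consensus peak lay at the promoter of 289 of the 413 lowered genes (70.0%, 95% Wilson interval 65.4 to 74.2), of 65 of the 147 raised genes (44.2%, 36.4 to 52.3) and of 4061 of the 13441 genes not called (30.2%, 29.4 to 31.0). A Zbtb11-high peak lay at 242 lowered genes (58.6%), at 52 raised genes (35.4%) and at 573 genes not called (4.26%). Seen from the other side, 867 genes tested had a Zbtb11-high promoter peak, and 242 of them were lowered, 52 raised and 573 not called (66.1%). The intervals cover counting error only, and genes that share a start region share a peak.

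The size of the change and the peak went together among the lowered genes. A Zbtb11-high peak lay at the promoter of 88 of the 98 genes that fell by more than 1 on the log2 scale (89.8%) and of 76 of the 83 genes that fell by 0.5 to 1 (91.6%), but of 78 of the 232 genes that fell by less than 0.5 (33.6%). Outside the *Nduf*, *Mrpl* and *Mrps* families, the 224 lowered genes with such a peak had a median log2 fold change of -0.81, and the 167 without it had -0.23. The raised genes were divided in the same manner with a smaller gap, with a median of 0.38 in the 52 genes that had a Zbtb11-high peak and 0.29 in the 95 that had none. Of the 36 raised genes above 0.5, 17 had a promoter peak and all 17 of these peaks were Zbtb11-high.

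The promoters were also searched for the letters CCGGAAG, a form of the sites bound by ETS proteins such as GABPA, on both strands (CTTCCGG on the other). Only exact matches counted, so other forms of such sites were missed. For genes with a promoter peak, the window ran from 250 bases before to 50 bases after the start nearest to the strongest peak. For genes without a peak, the same window was placed at the most upstream annotated start. The classes differ in how many genes have a peak, so these rules weigh differently in the shares below. Of 14000 promoters read from the mm9 genome, 17.7% held a match. The share was 32.2% for lowered genes (27.9 to 36.9), 29.9% for raised genes (23.1 to 37.8) and 17.2% for genes not called (16.5 to 17.8). Among the lowered genes it was 60.2% in those that fell by 0.5 to 1, which is 50 of 83 promoters, against 27.6% in those that fell by more than 1 and 24.1% in those that fell by less than 0.5. These are counts of letters in a window, and windows of neighbouring genes can overlap.

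**Figure D2:**
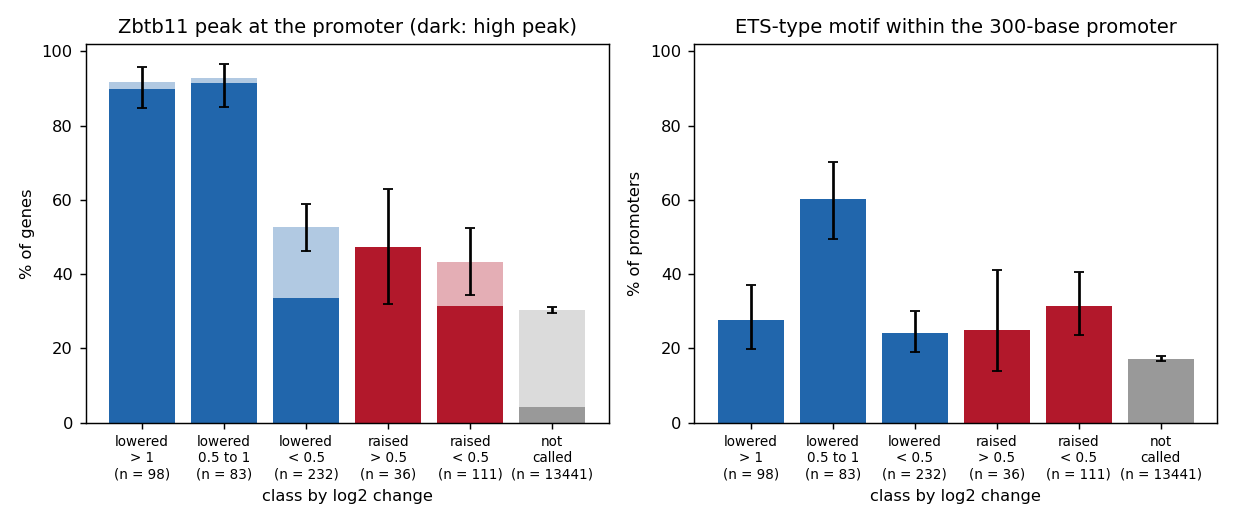
Left, the percentage of genes in each class with a consensus Zbtb11 peak at the promoter (pale bars, with 95% Wilson intervals) and with a Zbtb11-high peak (dark bars). Right, the percentage of 300-base promoters that hold the ETS-type motif (95% Wilson intervals). Classes are given by direction and by the size of the log2 fold change, and the lowered genes that changed by more than 0.5 stand above 90% in peaks of any strength.

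Gene functions were described with 57 lists, which held 1304 genes that were tested. Of these 133 were lowered and 32 raised. Over all 14001 genes tested, 2.95% were lowered and 1.05% raised, and the counts in single lists stand beside these shares. The lists were chosen with earlier results of these data known, so an excess of called members cannot be read as a result. In most lists a small number of members fell steeply while the others stayed near 0, so that the list median was close to the median of all genes.

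Protein glycosylation and lipid anchoring held several steeply lowered genes. *Slc35a3*, the Golgi carrier of UDP-N-acetylglucosamine, had 28.7, 24.3 and 25.1 CPM in the EtOH control and 4.33, 3.54 and 3.08 CPM in *Zbtb11* KO cells, and the groups did not overlap. Its log2 fold change was -2.84 (standard error 0.10, edgeR adjusted p = 3.79e-19), and it overlaps an exon of *Hiat1* on the same strand (-0.14, not called). *Slc35a3* shares near-identical sequence with 1 gene. *Slc33a1*, which carries acetyl-CoA into the endoplasmic reticulum, fell by 1.39, and no other of the 18 carriers listed was called. *Alg3*, the mannosyltransferase that starts the lumenal part of the N-glycan precursor, fell from 21.8, 21.8 and 23.3 CPM to 2.75, 4.95 and 4.18 CPM, a log2 fold change of -2.47 (adjusted p = 1.81e-16). *Dpagt1*, which makes the first sugar linkage of the same precursor, fell by 0.90, and the other 27 of 29 genes of precursor assembly were not called. Of 9 genes for the proteoglycan linker and C-mannosylation, *B4galt7* fell by 1.34 and *Dpy19l4* fell by 1.32.

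GPI anchors, the glycolipids that hold many proteins at the cell surface, are begun by an enzyme complex of several Pig proteins, and 2 of its subunits changed in opposite directions. *Pigq* had 50.4, 53.1 and 50.7 CPM in the EtOH control and 12.0, 9.23 and 7.11 CPM in *Zbtb11* KO cells (log2 fold change -2.46, standard error 0.09, adjusted p = 7.92e-19). *Pigc* had 2.78, 2.66 and 3.34 CPM in the EtOH control and 9.77, 8.21 and 8.5 CPM in *Zbtb11* KO cells (1.59, standard error 0.13, adjusted p = 3.00e-10). Neither gene overlapped between the groups, and in the 4OHT control the log2 fold changes against the EtOH control were 0.33 for *Pigq* and -0.38 for *Pigc*. *Pigl*, the deacetylase of the next step, fell by 0.31 with groups that overlapped, and 3 other genes hold stretches nearly identical to it. The other 21 of the 24 genes of the pathway were not called, and the median of the 24 was -0.03. Both promoters had a Zbtb11-high peak. The 150 bases before the start nearest to that peak are shown on the strand of the gene for this pair, with matches to CCGGAAG or CTTCCGG in capitals.
Pigq (mm9 chr17:26078994-26079143, minus strand): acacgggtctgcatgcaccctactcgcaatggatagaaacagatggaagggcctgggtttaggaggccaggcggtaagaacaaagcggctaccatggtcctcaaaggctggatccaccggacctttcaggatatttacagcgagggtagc
Pigc (mm9 chr1:163899280-163899429, plus strand): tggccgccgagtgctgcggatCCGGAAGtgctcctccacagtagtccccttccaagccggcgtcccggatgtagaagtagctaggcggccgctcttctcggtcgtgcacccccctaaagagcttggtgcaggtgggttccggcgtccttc
The printed *Pigc* stretch held 1 match and the *Pigq* stretch none. *Pigq* overlaps *Nhlrc4*, which was below the limit for testing, on the same strand.

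In the DNA damage lists, *Hus1*, a ring subunit of the 9-1-1 checkpoint clamp, had 75.4, 80.9 and 91.1 CPM in the EtOH control and 14, 13.0 and 12.1 CPM in *Zbtb11* KO cells. Its log2 fold change was -2.66 (standard error 0.07, adjusted p = 6.89e-22), against 0.43 in the 4OHT control. Its paralogue *Hus1b*, expressed at 1.07 to 1.41 CPM in the EtOH control, fell by 2.60. The remaining 16 of the 18 genes of the clamp and the ATR pathway were not called. *Helq*, a helicase of crosslink repair, fell by 0.89 and was the 1 member called among 26 genes of homologous recombination and helicases.

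Enzymes that act on transfer RNA were lowered in several lists. *Trdmt1*, the methyltransferase of a cytosine in aspartate tRNA, had the largest fall of all genes. It had 6.34, 8.14 and 8.15 CPM in the EtOH control and 0.527, 0.874 and 0.746 CPM in *Zbtb11* KO cells (log2 fold change -3.38, standard error 0.19, adjusted p = 1.89e-14). *Adat2*, the catalytic subunit of the tRNA adenosine deaminase, fell by 1.80 and *Dus1l*, a dihydrouridine synthase, fell by 0.58, and the other 38 of 41 tRNA modification genes were not called. *Trp53rk*, the kinase subunit of the KEOPS complex, fell by 1.91, from 2.89 ± 0.809 CPM to 0.757 ± 0.376 CPM (SD, n = 3), and shares near-identical sequence with another gene. In tRNA splicing 3 of 10 genes were lowered, namely *Ddx1* (-1.68, from 226 CPM on average) and *Fam98b* (-0.41) of the tRNA ligase complex, and *Tsen15* (-1.5) of the splicing endonuclease. In mitochondria 5 of 24 genes for tRNA and rRNA modification were lowered and none was raised. They were *Mettl15* (-1.49), *Gtpbp3* (-1.16), *Trub2* (-1.06), *Trmu* (-0.96) and *Cdk5rap1* (-0.77), and each of the 5 had a Zbtb11-high promoter peak. *Gtpbp3* shares near-identical stretches with 12 other genes.

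Ribosome production and transcription machinery showed the same pattern of single members. Of 56 genes of ribosome biogenesis 7 were lowered and none raised, with a median of -0.02 over the list. *Wdr36*, part of the small subunit processome, fell from 157, 183 and 182 CPM to 40.1, 55.5 and 50.4 CPM (-1.84), and *Rbm28* fell by 1.48. *Taf1b*, a subunit of the SL1 factor that starts rRNA synthesis by RNA polymerase I, had 22.1, 25.5 and 25.6 CPM in the EtOH control and 3.39, 5.05 and 5.42 CPM in *Zbtb11* KO cells (log2 fold change -2.39, adjusted p = 1.30e-17). *Polr1b*, a core subunit of that polymerase, fell by 0.29 with overlapping groups, and 15 other genes hold stretches nearly identical to it. Of 10 genes of TFIIH and its CDK-activating kinase, *Mnat1* fell by 1.66, *Gtf2h2* fell by 0.39 and *Gtf2h4* fell by 0.34. *Gtf3c3* of TFIIIC fell by 0.95 and *Supt7l* of SAGA fell by 1.44.

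Further steep falls were seen outside the lists and in lists with few called genes. *Them4*, an acyl-CoA thioesterase gene, fell by 2.48. *Zmpste24*, which encodes the protease that matures lamin A and is in none of the lists, fell by 2.05. *Commd2* of the Commander complex fell by 1.65 while 13 other members were not called, and *Eefsec*, the elongation factor for selenocysteine, fell by 1.18 while 7 others were not called. *Hira*, a histone chaperone, fell by 0.78. Among 36 lysosomal enzymes none was lowered and *Acp2*, an acid phosphatase, rose by 0.58.

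Several complexes held both lowered and raised subunits. In the Integrator, which cleaves nascent snRNA, *Ints5* fell by 0.91 and *Ints12* rose by 0.44, and 9 other subunits were not called. Among 32 genes of INO80, SRCAP and NuA4, *Ino80b* fell by 2.08 and *Dmap1* fell by 0.82, while *Ruvbl1* and *Actl6a* each rose by 0.16 and *1600027N09Rik* rose by 0.31. The calls of *Ruvbl1* and *Actl6a* were lost without replicate 1 or without replicate 3, and that of *1600027N09Rik* without replicate 1 or 2. Among 33 splicing factors 6 were lowered and 4 raised. The lowered ones included *Arl6ip4* (-2.04), *Nkap* (-1.94) and *Ccdc94* (-0.96), and the raised ones *Txnl4b* (0.51), *Snrnp200* (0.44), which encodes the helicase that unwinds U4 from U6 snRNA, *Isy1* (0.44) and *Dhx16* (0.17). The call of *Txnl4b* was lost without replicate 1, and that of *Dhx16* without replicate 1 or 3.

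In membrane traffic, lowered genes lay at the step between endoplasmic reticulum and Golgi and in endosomes. Of 39 SNARE proteins, which drive membrane fusion, 5 were lowered and none raised. *Stx18*, a retrograde t-SNARE of the endoplasmic reticulum, fell from 6.71, 10.4 and 10.1 CPM to 1.11, 2.62 and 2.34 CPM (-2.15). *Stx16* fell by 1.68, *Vti1a* fell by 1.39, *Sec22b* fell by 1.19 and *Snap47* fell by 0.53. In the COPII coat, which buds vesicles from the endoplasmic reticulum, *Sar1b* (-1.60) and *Sec13* (-0.81) fell. *Sec13* was also lower in the 4OHT control (-0.56). The calls of the coat genes *Sec24a* (-0.20), *Sec23a* (-0.17) and *Sec31a* (-0.16) were lost without replicate 3, and for the last 2 of these also without replicate 1. *Ap3s2* of the AP-3 adaptor fell by 1.69, and the other 23 adaptor genes were not called. *Pex3*, needed to place membrane proteins in peroxisomes, fell by 1.86 as the 1 called gene of 14. In the mTORC1 list 6 of 30 genes were lowered and 1 was raised, with a median of -0.01. The raised gene was *Tbc1d7*, the third subunit of the TSC complex (0.83). The lowered ones were *Sec13*, which also belongs to the GATOR complex that signals to mTORC1, *Wdr24* of the same complex (-0.58), *Seh1l* (-0.18), *Tsc1* (-0.26), *Rragc* (-0.26) and *Mtor* (-0.16). The calls of *Tsc1* and *Rragc* were lost without replicate 1, and that of *Mtor* without replicate 2 or 3.

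Of 41 genes of the proteasome and its assembly 3 were lowered and 1 raised. *Psmd9* rose by 0.28, a call lost without replicate 1 or 3. *Psmg3*, a chaperone of proteasome assembly, fell from 8.96, 16.2 and 14.2 CPM to 3.04, 3.40 and 3.18 CPM (-2.04). *Cops7b* of the COP9 signalosome fell by 1.12, *Anapc5* of the anaphase-promoting complex fell by 0.98 from a level of 309 ± 11.7 CPM (SD, n = 3), and the substrate receptors *Klhl20* (-1.06) and *Fem1b* (-0.82) were lowered as well. The ufmylation pathway attaches the ubiquitin-like protein Ufm1 to targets. In this list *Ufc1*, its conjugating enzyme, rose by 0.88.

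Mitochondrial genes outside the *Nduf*, *Mrpl* and *Mrps* families were followed in several lists. Of 39 nuclear genes for subunits of complexes II to V, 1 was lowered (*Cox7b*, -0.16, a call lost without replicate 1 or 3). Of 18 tested assembly factors of complexes III to V (13 others on the list had no match by symbol), 3 were lowered, namely *Taco1* (-1.92), *Atpaf1* (-1.01) and *Tmem70* (-0.43). *Coq3*, a methyltransferase of coenzyme Q synthesis, fell from 14.9, 13.7 and 15.4 CPM to 3.80, 3.74 and 3.53 CPM (-1.99), and *Pdss1* of the same pathway fell by 0.44, as 2 of 13 genes. *Acsf3*, the malonyl-CoA synthetase of mitochondria, fell by 2.09 and *Agk*, a lipid kinase of the import machinery, fell by 1.37. Mitochondrial translation factors moved both ways. *Ict1*, whose alias *Mrpl58* would place it in the *Mrpl* family, fell by 0.94 and *Tars2* fell by 0.56. In contrast, *Tufm* rose by 0.25, *Mtif2* rose by 0.24 and *Mtg1* rose by 0.31, the last a call lost without replicate 3. *Mtif2* shares near-identical stretches with 22 other genes and *Tufm* with 1. In the 4OHT control *Tufm* stood at -0.49 against the EtOH control. In edgeR as described and in DESeq2, none of 27 genes of the TCA cycle and aspartate supply was called (1 had an unadjusted p under 0.05), nor was any of 17 NRF1, GABP and PGC-1 regulators (3 under 0.05). Without TMM scaling 1 gene of each of these lists was raised, and with edgeR's robust empirical Bayes step 1 of the 17 regulators was lowered.

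Of the 9 transcripts of the mitochondrial genome that were tested, all had a log2 fold change below 0, with a median of -0.12. *mt-Rnr2*, the large ribosomal RNA, was called, at 53487, 50831 and 58845 CPM in the EtOH control and 40647, 41090 and 36845 CPM in *Zbtb11* KO cells (-0.46, adjusted p = 4.47e-05). Transcripts of the mitochondrial genome as a whole, *mt-Rnr2* included, made up 8.65 to 10.1% of counts in the EtOH control and 7.0 to 8.21% in *Zbtb11* KO cells. In the 4OHT control libraries the share was 7.29, 10.5 and 9.11%. Libraries had been depleted of rRNA, and the part of that step in the *mt-Rnr2* level and in these shares was not tested.

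The raised genes were led by *Prrg2*, which encodes a membrane protein with a Gla domain. It had 2.88, 2.44 and 2.5 CPM in the EtOH control, 13.0, 10.7 and 11.6 CPM in *Zbtb11* KO cells, and 2.48, 1.77 and 2.09 CPM in the 4OHT control. Its log2 fold change was 2.17 (standard error 0.12, adjusted p = 4.13e-14), a fold change of 4.50. *Nmnat1*, the nuclear enzyme that makes NAD from nicotinamide mononucleotide, had 9.22, 9.12 and 10.7 CPM in the EtOH control and 22.4, 25.4 and 25.2 CPM in *Zbtb11* KO cells. It rose by 1.33 (standard error 0.08, adjusted p = 1.55e-13), while it stood at -0.66 in the 4OHT control, and it shares near-identical stretches with 7 other genes. In the same list *Sarm1*, an enzyme that consumes NAD, fell by 1.14 and *Apoa1bp*, which repairs damaged NADH, fell by 0.65, and 19 of 22 genes were not called.

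*Ufc1* had a level of 35.3, 42.6 and 39.6 CPM in the EtOH control and 69.1, 71.8 and 75.4 CPM in *Zbtb11* KO cells (adjusted p = 1.59e-13). In the 4OHT control it was lower, with 29.0, 28.1 and 26.7 CPM. *Tbc1d7* had 15.6, 15.5 and 15.7 CPM in the EtOH control and 27.6, 28.9 and 26.3 CPM in *Zbtb11* KO cells. *Kbtbd4*, a Kelch and BTB substrate receptor, rose by 0.80, and *Dffb*, the nuclease that cuts DNA in apoptosis, rose by 0.81. For each of these genes the 3 *Zbtb11* KO libraries lay above the EtOH control. *1300018I17Rik* rose by 0.90 at the promoter with the third strongest of all 7500 peaks, and *1810024B03Rik* rose by 1.41.

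**Figure D3:**
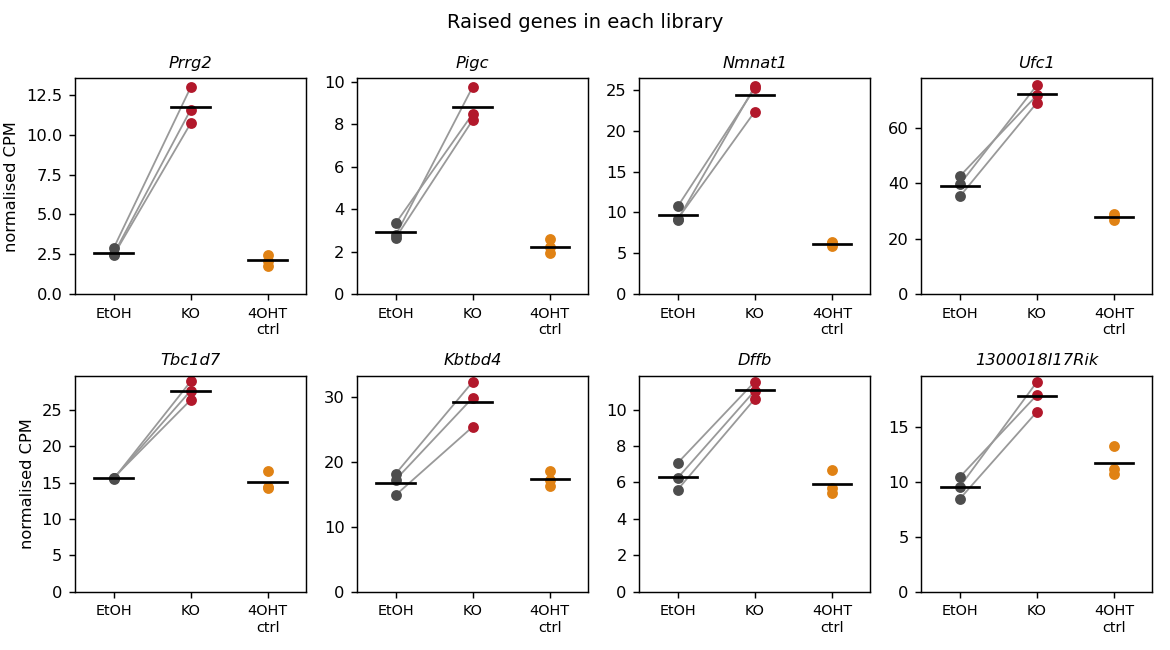
Normalised CPM of 8 raised genes in each library, with the EtOH control in grey, *Zbtb11* KO cells in red and the 4OHT control in orange. Grey lines join libraries of the same replicate number, and bars are group means of 3 libraries. For all 8 genes the *Zbtb11* KO libraries lie above those of both controls.

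The 20 most raised genes also held weakly expressed features whose calls were less stable. *Gm13534* (1.12) lost its call without any of the 3 replicates, *Gm17249* (0.98) without replicate 1 or 3, *Gm14236* (1.1) without replicate 2, *Osbp2* (0.80) without replicate 2 or 3 and *Il4ra* (0.84) without replicate 3. *8430429K09Rik* (0.81) and *Gng12* (0.75) kept theirs without any single replicate. *Lars2*, the leucyl-tRNA synthetase of mitochondria, rose by 0.75, from 81.9, 44.5 and 75.8 CPM to 87.4, 85.6 and 171 CPM, and its values in the 4OHT control were 58.3, 173 and 48.7 CPM. Its call was lost with DESeq2 and with all 9 libraries in the fit. It shares 71 bases at 98.6% identity with *Gm15564*, a noncoding transcript that also rose (0.82), without replicate 3 no longer called. *AC115697.1* (0.87), a feature of miRNA type, likewise lost its call without replicate 3. Read sharing between such features was not tested.

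Many raised genes with a Zbtb11-high peak had a neighbour whose transcription starts nearby on the other strand and runs away from them, a head-to-head arrangement. With starts at most 1000 bases apart, 21 of the 52 raised genes with a Zbtb11-high peak were in such a pair with another gene tested (40.4%, Wilson interval 28.2 to 53.9). The share was 32.1% for genes with such a peak that were not called (28.4 to 36.0), 25.6% for lowered genes with such a peak (20.5 to 31.5), and 10.5% for raised genes without such a peak (5.82 to 18.3). The intervals of the first 3 classes overlap. Among all 1061 head-to-head pairs of genes tested, 14 had both genes lowered, 8 had 1 gene lowered and the other raised, and 1 had both raised.

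In the 8 pairs with opposite changes, the raised gene rose by 0.38 to 0.90 and its neighbour changed by -0.85 to -0.20. The widest gap was at *1300018I17Rik* (0.90, adjusted p = 3.64e-09) and *Zfp276* (-0.85, adjusted p = 3.38e-05), whose starts are 19 bases apart. *Tatdn3* rose by 0.57 beside *Nsl1* (-0.66), a kinetochore gene, and *Jmjd4* rose by 0.40 beside the SNARE gene *Snap47* (-0.53). *Kbtbd4* (0.80) lies beside *Ndufs3* of complex I (-0.22, adjusted p = 0.0207), and *Ighmbp2*, a helicase gene (0.42), beside *Mrpl21* of the mitochondrial ribosome (-0.29). *Ints12* (0.44) was paired with *Gstcd* (-0.28), *Tmem68* (0.49) with *Tgs1* (-0.20), and *1110038D17Rik* (0.38) with the splicing gene *Snrpd3* (-0.39). The libraries kept the strand, so reads of the neighbours lie on opposite strands. In other pairs only the raised gene was called. *Nosip*, which starts 25 bases from *Prrg2*, had a log2 fold change of -0.01 (adjusted p = 0.957), and *Lzic*, 27 bases from *Nmnat1*, had -0.05 (adjusted p = 0.841). *Snrnp200* and *1810024B03Rik*, 106 bases apart, both rose.

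Where both genes of a pair fell, the changes could be alike or unequal. *Pex3* (-1.86) and *Adat2* (-1.80) start 30 bases apart, and *Supt7l* (-1.44) and *Slc4a1ap* (-1.42) start 222 bases apart. *Zdhhc6* (-1.68) was paired with *Vti1a* (-1.39), and *Itgb3bp* (-1.48) with *Efcab7* (-1.67). By contrast *Sar1b* fell by 1.60 and *Sec24a*, 53 bases away, fell by 0.20, and *Alg3* fell by 2.47 and *Ece2* fell by 0.70. The difference within a pair was not tested.

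The bases from one start to the other are printed for the 8 pairs with opposite changes, for the pairs of *Prrg2* and *Nmnat1*, where only 1 gene rose, and for *Adat2* with *Pex3*, where both fell, since these short stretches belong to promoters with a Zbtb11-high peak and let pairs that changed differently be set beside a pair that changed alike. They are read from mm9 on the strand of the gene named first, with matches to CCGGAAG or CTTCCGG in capitals.
Tatdn3/Nsl1 (mm9 chr1:192886811-192886891, minus strand): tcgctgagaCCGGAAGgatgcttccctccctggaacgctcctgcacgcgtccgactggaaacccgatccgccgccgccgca
Adat2/Pex3 (mm9 chr10:13272670-13272700, plus strand): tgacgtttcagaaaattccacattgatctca
1110038D17Rik/Snrpd3 (mm9 chr10:74980717-74980787, minus strand): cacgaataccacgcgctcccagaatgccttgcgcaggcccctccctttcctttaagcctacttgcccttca
Jmjd4/Snap47 (mm9 chr11:59263509-59263547, plus strand): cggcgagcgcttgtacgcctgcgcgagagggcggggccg
Ighmbp2/Mrpl21 (mm9 chr19:3283017-3283055, minus strand): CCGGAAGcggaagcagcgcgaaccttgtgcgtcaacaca
Kbtbd4/Ndufs3 (mm9 chr2:90744859-90744897, plus strand): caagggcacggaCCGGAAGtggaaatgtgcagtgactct
Ints12/Gstcd (mm9 chr3:132754742-132754804, plus strand): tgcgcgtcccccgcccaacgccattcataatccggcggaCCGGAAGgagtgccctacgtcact
Tmem68/Tgs1 (mm9 chr4:3502000-3502022, minus strand): gacagcagctaCCGGAAGgggcg
Nmnat1/Lzic (mm9 chr4:148859311-148859338, minus strand): tggattcgcgcaCTTCCGGctgtgtggg
Prrg2/Nosip (mm9 chr7:52317774-52317799, minus strand): ggagaccggaaataattctgccccta
1300018I17Rik/Zfp276 (mm9 chr8:125778076-125778095, minus strand): cagctcctgcgcctccctca
A match lay between the starts in 5 of the 8 pairs with opposite changes. Among all 479 pairs with starts at most 100 bases apart, 68 held a match (14.2%). All 8 pairs have a Zbtb11-high promoter peak, whereas the 479 pairs were taken whatever their peaks. The share among other pairs with such a peak was not counted, so the values do not set the opposite changes apart from the peak. The number of pairs is small, and lengths between starts differ.

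**Figure D4:**
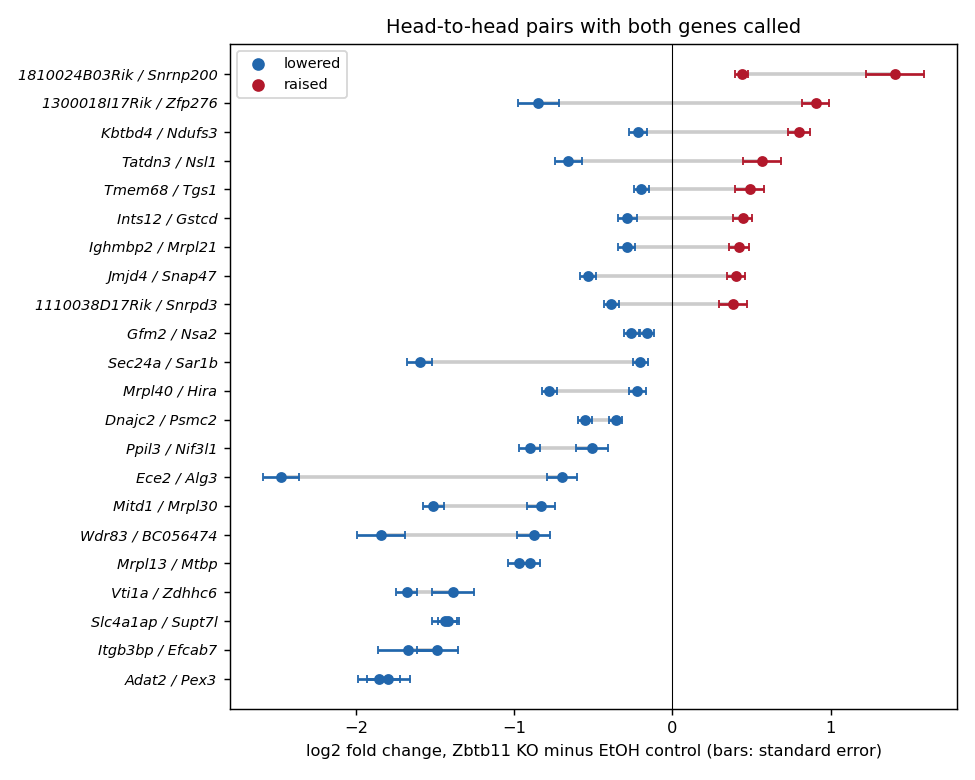
Log2 fold changes in *Zbtb11* KO cells minus EtOH control for 22 of the 23 head-to-head pairs in which both genes were called, with standard errors. Red points are raised and blue points lowered genes, and a grey line joins the genes of a pair. The 8 pairs with opposite changes follow the single pair in which both rose, and 13 of the 14 pairs in which both fell stand below.

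The lists of glycolysis, cholesterol and p53 genes held called members with small changes, mostly without a Zbtb11-high peak. Of 35 genes of glycolysis and the hypoxia response 12 were lowered and none raised, with a median of -0.10 over the list against 0.0001 over all genes. *Bnip3*, a mitophagy receptor induced by hypoxia, had 203, 98.8 and 121 CPM in the EtOH control and 178, 58.5 and 84.7 CPM in *Zbtb11* KO cells (-0.47, adjusted p = 1.86e-06). *Slc16a3*, a lactate exporter, fell by 0.44 and *Pfkp*, a phosphofructokinase, fell by 0.27. The groups overlapped for *Bnip3* and *Slc16a3*, both were highest in replicate 1, and each fell within every pair. None of the 12 had a Zbtb11-high promoter peak. Without replicate 2 the count was 4, with DESeq2 2, and without the replicate block 0.

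Of 26 genes of cholesterol synthesis and the SREBP pathway 11 were lowered and none raised, with a median of -0.14. *Mbtps2*, the protease that releases SREBP factors from the membrane, stood apart from the others. It had 48, 45.7 and 48.8 CPM in the EtOH control and 21.1, 19.9 and 18.3 CPM in *Zbtb11* KO cells (-1.27, adjusted p = 2.48e-15), and it was the only one of the 11 with a Zbtb11-high promoter peak. The others ranged from -0.33 (*Sc4mol*) to -0.15 (*Srebf2*). Without replicate 1 the count was 4, with *Sc4mol* no longer called, and without the replicate block it was 1. *Srebf2* lost its call when any of the 3 replicates was left out. In the 4OHT control the log2 fold change was -0.23 for *Mbtps2* and 0.26 for *Sc4mol*.

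Of 30 tested genes on the list of p53 and its targets, which also holds the apoptosis genes *Dffa* and *Dffb*, 7 were raised and none lowered. The median was 0.09. They were *Dffb* (0.81), *Phlda3* (0.46), *Btg2* (0.31), *Plk2* (0.27), *Mdm2* (0.24), *Ccng1* (0.24) and *Trp53inp1* (0.20), and only *Dffb* had a Zbtb11-high promoter peak. *Phlda3*, an inhibitor of Akt signalling, had 34.5, 21.5 and 24 CPM in the EtOH control and 45.4, 30.2 and 33.7 CPM in *Zbtb11* KO cells, so that the groups overlapped while each pair rose. *Mdm2*, the ubiquitin ligase of p53, had 170, 103 and 106 CPM against 182, 123 and 138 CPM. The 4OHT control was lower than the EtOH control in *Mdm2* (-0.20) and *Ccng1* (-0.31). The call was lost without replicate 3 for *Mdm2*, without replicate 2 for *Plk2*, and without replicate 2 or 3 for *Trp53inp1*, and without the replicate block none of the 7 was called.

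Other lists of cell state held few called genes. Of 22 naive pluripotency genes *Klf5* was lowered (-0.22, a call lost without replicate 3), and of 12 primed and lineage markers *Lef1* (-0.31, lost without replicate 3). Of 41 cell cycle genes *Cdk2* (-0.18) and *Cdkn1b* (-0.20) were lowered, and both calls were lost without replicate 1 or 3. Of 43 genes of the integrated stress response *Atf5* rose by 0.40, while *Wars* fell by 0.37 and *Ddit4* fell by 0.23, the last a call lost without replicate 2. None of 12 tested markers of fibroblasts and other differentiated cells was called by edgeR as described, while 4 had an unadjusted p under 0.05. DESeq2, the newer form of edgeR's fit, its robust step and the fit without replicate 2 each called 1 as lowered.

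**Figure D5:**
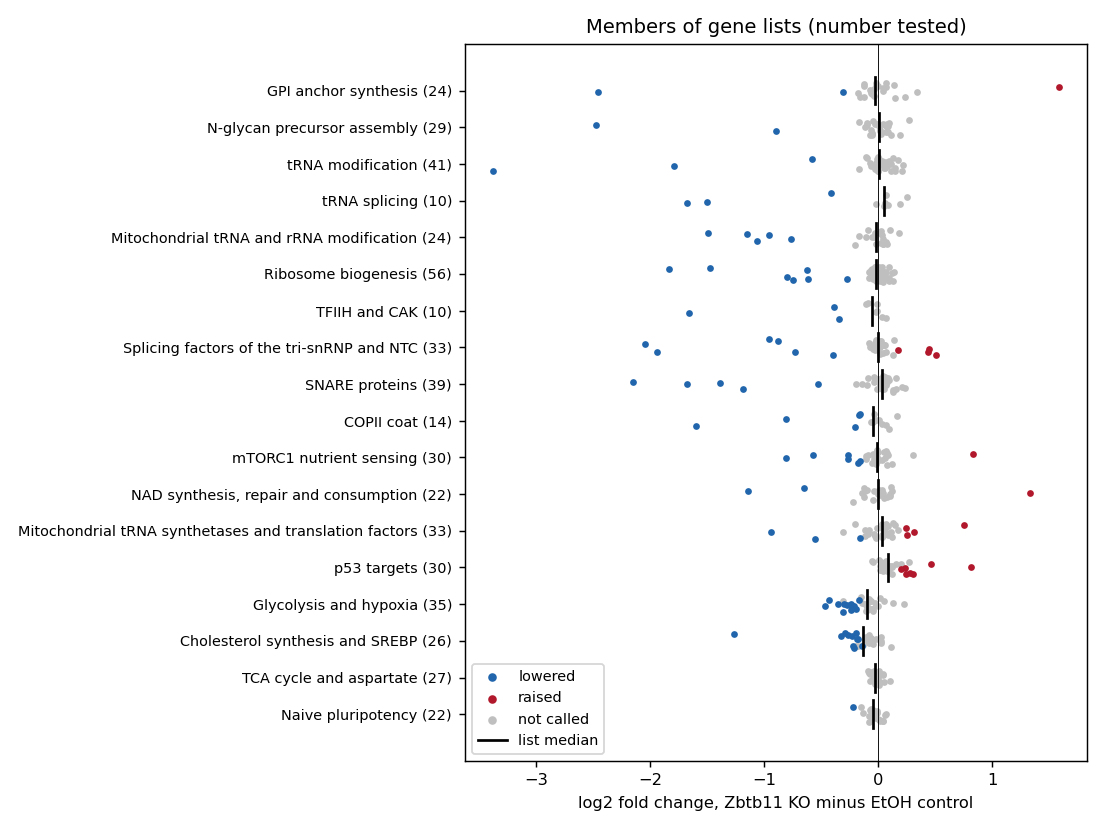
Log2 fold changes in *Zbtb11* KO cells minus EtOH control for the tested members of 18 gene lists, one row per list with the number tested. Blue points are lowered, red points raised and grey points not called, and the black bar is the list median. The lists of glycolysis and cholesterol genes have medians of -0.10 and -0.14, and that of p53 targets 0.09.

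When the 4OHT control was set against the EtOH control, which are different lines and share the EtOH libraries with the comparison above, 4816 of 14346 genes were called (33.6%). The 224 lowered genes outside the 3 families with a Zbtb11-high peak had a median log2 fold change of 0.03 in that comparison, the 52 raised genes with such a peak had -0.08, and the 95 raised genes without it had 0.12.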

How the data were processed

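RNA-seq counts came from 6 libraries of 2 groups, with 3 further 4OHT control libraries. The authors trimmed the reads, aligned them to mm9 with STAR and counted them per gene with HTSeq; the deposited values are raw counts for 37310 genes. The rows that name no gene were left out, of which reads on no feature made up 25.3 to 29.9% of a library. The deposited Zbtb11 ChIP-seq peaks and the coverage signal over 7500 consensus peaks, normalised by the authors with DiffBind, were used as they stand.

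Genes above 1 CPM in 3 or more of the 6 libraries were tested with edgeR 4.0.16 in R 4.3.3 (TMM, quasi-likelihood F test, two-sided, Benjamini-Hochberg over 14001 genes, threshold 0.05), with the replicate number as a block. The block was part of the definition of the comparison. Same-numbered libraries of the groups deviated together from their group means (r = 0.864, 0.610 and 0.682). EtOH control 2 with *Zbtb11* KO 3 (r = 0.519) and EtOH control 3 with *Zbtb11* KO 2 (r = 0.489) did so as well. These values therefore set replicate 1 apart, but do not settle the pairing of replicates 2 and 3. The libraries are described as biological replicates, and each gene has 2 residual degrees of freedom for the spread between them. The test moderates this spread with information from all genes tested (median of 26.0 prior degrees of freedom). The p-values therefore rest largely on the shared estimate. The test gives no standard error, so the values printed as such are the size of the log2 fold change divided by the square root of its F statistic. Given CPM values are TMM normalised, except in sums over cell type markers. In simulated data on these 14001 genes for *Zbtb11* KO against EtOH control, all of 40 genes changed by -1.5 on a log2 scale were called, 75.0% at -0.5, 70.0% at -0.3, 62.5% at 0.3 and 97.5% at 0.5. The simulated counts used the dispersions estimated from these libraries. The changed genes were drawn above a floor of mean count, so the shares do not cover the most weakly expressed genes tested.

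The comparison and the 57 gene lists were chosen with earlier results of these data known. Named genes were the 20 most lowered outside *Nduf*, *Mrpl* and *Mrps* and the 20 most raised that moved the same way in all 3 pairs, the called members of the lists, and *Rpl24*; genes of head-to-head pairs were named after their values were seen. Some genes that this rule names are not reported here. Promoters, motifs and sequences were read from the mm9 genome with pysam 0.24.0, and shared sequence of at least 100 bases at 95% identity was found with BLAST 2.17.0. Intervals cover counting error only. Alternatives were no block, all 9 libraries, DESeq2 1.42.0, other scalings, filters, thresholds and forms of the fit, and leaving out each replicate. Counts of the p53, glycolysis and cholesterol lists under these settings were added after the data had been seen.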

Additional observations from a re-analysis of the deposited data

How the results depend on the processing

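The replicate block decided most calls. Without it, 113 genes were differentially expressed, 104 lowered and 9 raised, and the 9 raised genes were *Prrg2*, *Pigc*, *1810024B03Rik*, *Nmnat1*, *1300018I17Rik*, *Ufc1*, *Tbc1d7*, *Kbtbd4* and *AC113316.1*. With all 9 libraries in the fit the counts were 323, 257 and 66, and with DESeq2 277, 227 and 50. Library sizes without TMM gave 294 raised genes. At a threshold of 0.01 there were 370 differentially expressed and 85 raised genes, and against a fold change of 1.2 (glmTreat) 205, of which 179 were lowered and 26 raised. Leaving out a replicate gave 401 to 578 differentially expressed, 313 to 392 lowered and 88 to 186 raised genes, the 88 without replicate 3. No named gene changed direction. Of 185 called named genes, 71 kept their call under all the settings tried on single genes, 49 lost it only without the block and 53 lost it without at least 1 replicate. The share of genes not called that had a promoter peak was 35.3% with all Zbtb11 peaks and 28.4% when most of a peak had to lie in the promoter. The cause of these changes was not tested.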
